A study of Homo sapiens with 16 samples.

Results

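TC2N, TM4SF20, ELMO1 and DOCK8 are 4 of the 18227 genes measured in A549 and H2023, 2 established lines of human non-small cell lung cancer. They were chosen by their lower level in the ZC3H12A-knockout clones than in wild-type cells, in both lines and both cultures, so that difference is described below without a test. RNA sequencing covered 16 libraries in 8 groups of 2, made up of A549 or H2023, wild-type or ZC3H12A-knockout genotype, and normal culture for 3 days or an oncosphere culture (enriched for stem-like cells) for 7 days. Culture type and days in culture change together. By title, the knockout cells were clone g2-3 in A549 and clone g2-1 in H2023, each also written as Clone2-2, which is read here as 1 clone per line. A difference from wild type then holds the edit together with whatever else sets that clone apart. The labels do not say that the 2 libraries of a group came from separate cultures, and p-values then measure only the spread between these libraries.

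ZC3H12A encodes Regnase-1, an RNase that cuts selected mRNAs and so shortens their life. TC2N carries tandem C2 domains, the kind of module by which synaptotagmins bind membranes, and has been described as promoting growth of lung cancer cells by dampening p53. TM4SF20 is a membrane protein of the L6 family whose orientation in the endoplasmic reticulum membrane is known to control the proteolytic release of CREB3L1, a transcription factor that drives collagen genes. ELMO1 and DOCK8 belong to the machinery that switches on small GTPases and so reshapes actin: ELMO1 is the partner protein of DOCK1-type exchange factors that load Rac with GTP, as in engulfment of dying cells and cell migration, and DOCK8 loads Cdc42 and is best known from lymphocytes, where its loss causes immunodeficiency.

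The targeted gene was checked first. ZC3H12A stood at 30.72 and 34.88 TPM (a gene's length-scaled share of the transcripts in a library) in the A549 normal-culture wild-type libraries and at 16.9 and 19.93 TPM in those labelled knockout. In A549 oncosphere culture the values were 48.48 and 49.17 TPM against 60.17 and 55.6 TPM. H2023 showed 26.78 and 29.85 TPM against 41.48 and 41.54 TPM in normal culture, and 32.54 and 26.41 TPM against 94.61 and 69.18 TPM in oncosphere culture. The mRNA was thus lower in the libraries labelled knockout in 1 of the 4 comparisons and higher in 3, an mRNA level does not show whether the protein was made, and knockout below means the libraries labelled so. Mitochondrial transcripts took 10.3% to 18.7% of TPM in normal and 19.5% to 25.6% in oncosphere culture. Sequencing depth per library cannot be read from TPM and is unknown. All 6 epithelial markers were measured, with sums of 2571 and 5009 TPM in the A549 normal-culture knockout libraries against 9175 and 9346 TPM in wild type, and of 12330 and 13030 TPM in the H2023 normal-culture knockout libraries against 8749 and 9397 TPM. In oncosphere culture the sums were 5659 and 7825 TPM against 6666 and 7544 TPM in A549, and 7766 and 8273 TPM against 4327 and 4565 TPM in H2023. A group mean of at least 1 TPM was reached by 4 of the 6 in A549 normal-culture knockout, 5 in A549 oncosphere knockout and 6 in each other group. The lowest library values were 0.37 TPM for EPCAM and 0.29 TPM for KRT19. Lung lineage markers (NKX2-1, SFTPC, SFTPB, SFTPA1, SCGB1A1) were not analysed here.

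Before the values, the DNA in front of each gene is shown, because the 4 genes sit on 4 chromosomes and share a level pattern. Positions are those of GENCODE version 29 on GRCh38, the build in the submitters' processing notes. TC2N (ENSG00000165929) spans bases 91779751 to 91867536 of chromosome 14 on the minus strand. TM4SF20 (ENSG00000168955) spans 227362156 to 227381995 of chromosome 2, also on the minus strand. ELMO1 (ENSG00000155849) covers 36854361 to 37449249 of chromosome 7 on the minus strand, and DOCK8 (ENSG00000107099) covers 214854 to 465259 of chromosome 9 on the plus strand. All 4 are protein-coding and matched the RefSeq promoter table (GRCh38.p14), which gave 9 windows for them. The 250 bases before a start site are printed for the window nearest to each gene's 5′ end and for the inner start site of TC2N, each read 5′ to 3′ along the gene's own strand, with capitals marking the motifs GGGCGG or AGATAA on either strand.
TC2N, chr14:91867537-91867786, minus strand: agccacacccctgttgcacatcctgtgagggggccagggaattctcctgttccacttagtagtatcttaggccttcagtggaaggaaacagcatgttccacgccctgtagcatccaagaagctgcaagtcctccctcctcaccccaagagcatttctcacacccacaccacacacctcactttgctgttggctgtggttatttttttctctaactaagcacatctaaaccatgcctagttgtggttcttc
TC2N inner start site, chr14:91836456-91836705, minus strand: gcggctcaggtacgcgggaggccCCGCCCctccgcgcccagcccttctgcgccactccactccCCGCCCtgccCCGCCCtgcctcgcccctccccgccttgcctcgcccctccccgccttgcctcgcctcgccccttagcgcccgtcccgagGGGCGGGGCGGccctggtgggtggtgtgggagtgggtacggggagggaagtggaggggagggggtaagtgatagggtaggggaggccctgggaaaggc
TM4SF20, chr2:227379307-227379556, minus strand: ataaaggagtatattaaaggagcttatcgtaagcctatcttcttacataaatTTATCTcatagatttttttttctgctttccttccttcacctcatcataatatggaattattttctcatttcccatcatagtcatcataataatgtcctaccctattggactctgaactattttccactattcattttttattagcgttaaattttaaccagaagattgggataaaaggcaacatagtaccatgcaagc
ELMO1, chr7:37449327-37449576, minus strand: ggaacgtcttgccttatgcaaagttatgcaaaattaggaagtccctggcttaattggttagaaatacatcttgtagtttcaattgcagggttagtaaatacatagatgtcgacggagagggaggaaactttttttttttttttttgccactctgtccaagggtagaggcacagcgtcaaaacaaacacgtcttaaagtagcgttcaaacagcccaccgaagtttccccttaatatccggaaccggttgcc
DOCK8, chr9:214615-214864, plus strand: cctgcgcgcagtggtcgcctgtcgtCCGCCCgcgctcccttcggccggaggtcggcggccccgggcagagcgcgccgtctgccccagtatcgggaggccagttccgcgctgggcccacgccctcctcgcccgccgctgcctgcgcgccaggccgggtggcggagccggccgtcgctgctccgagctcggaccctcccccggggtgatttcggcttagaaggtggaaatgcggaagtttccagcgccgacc

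TC2N's outer window was 50.0% G and C with 1 CpG, whereas its inner window, 31081 bases further along the gene, was 76.0% with 21 CpG and 5 GGGCGG matches, the last 2 sharing a base. TM4SF20's window was 31.2% G and C with 2 CpG, and only 2.16% of the 35116 windows in the table had a lower share. Its start site lay 2689 bases inside the GENCODE gene, and it held 1 AGATAA 198 bases before the start. ELMO1's window was 42.0% with 9 CpG and DOCK8's 75.2% with 36 CpG, against medians of 58.0% and 11 CpG over all windows. Besides GGGCGG, held by 42.6% of all windows, and AGATAA, held by 9.17%, exact matches on both strands were sought for TATAAA (10.7% of windows), TGACTCA (4.2%), TGTTTAC (2.98%), CACGTG (6.34%), AGGTCA (12.1%) and TTTATGG (2.3%). None of these was in the 5 printed windows. The other 4 windows of the table, 3 inner ones of ELMO1 and 1 of DOCK8, held 1 TTTATGG match, 1 GGGCGG match and 1 AGATAA match for ELMO1, and 2 AGATAA matches for DOCK8. No motif was shared by the 4 outermost windows, which says only that these letters are not in them.

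TC2N was measured at 3.49 and 8.72 TPM in A549 wild-type normal culture and at 0.09 and 0.26 TPM in the knockout libraries. The same gene read 57.61 and 50.85 TPM against 3.54 and 2.94 TPM in A549 oncosphere culture. H2023 gave 8.73 and 11.86 TPM against 0.17 and 0.03 TPM in normal culture, then 37.91 and 39.28 TPM against 2.73 and 3.87 TPM in oncosphere culture. In each of the 4 comparisons both knockout libraries lay below both wild-type libraries, as was so for all 4 genes described here and, in the order just given, for 34.6%, 27.8%, 24.5% and 18.9% of all genes. The knockout mean was 2.87%, 5.98%, 0.971% and 8.55% of the wild-type mean in that order. The authors' deposited tables give log2 fold changes of -4.99 (SE 0.58), -4.06 (SE 0.22), -6.62 (SE 0.51) and -3.64 (SE 0.3) in that order. TC2N in the H2023 knockout oncosphere libraries (2.73 to 3.87 TPM) overlapped A549 wild-type normal culture (3.49 to 8.72 TPM).

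TM4SF20 had the highest mean of the 4 in each wild-type group. Wild-type A549 held 9.49 and 30.29 TPM in normal and 213.34 and 277.97 TPM in oncosphere culture, the latter mean above 97.3% of all genes in that group. Its knockout libraries held 0.83 and 0.55 TPM in normal and 4.54 and 9.66 TPM in oncosphere culture. Wild-type H2023 gave 21.16 and 22.27 TPM, then 56.3 and 48.76 TPM in oncosphere culture, and its knockout libraries gave 0.31 and 0.49 TPM, then 0.52 and 0.82 TPM. No ranges overlapped, and the knockout mean was 3.47% and 2.89% of wild type in A549 and 1.84% and 1.28% in H2023 (normal, then oncosphere culture). The authors' deposited tables put the log2 fold change at -4.74 (SE 0.86), -5.14 (SE 0.55), -5.95 (SE 0.34) and -6.46 (SE 0.3) in the same order.

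ELMO1 varied less. It stood at 7.11 and 8.41 TPM in A549 wild-type normal culture against 0.67 and 0.65 TPM in knockout, and at 12.76 and 13.35 TPM against 1.83 and 1.7 TPM in oncosphere culture. In H2023 normal culture the wild-type libraries differed from each other, at 3.14 and 10.26 TPM, but both lay above the knockout values of 0.28 and 0.51 TPM. H2023 oncosphere culture gave 9.22 and 8.35 TPM against 1.53 and 0.73 TPM. The knockout mean was 8.51%, 13.5%, 5.9% and 12.9% of wild type in this order, and the authors' deposited tables give log2 fold changes of -3.63 (SE 0.38), -3.32 (SE 0.29), -4.11 (SE 0.54) and -3.88 (SE 0.51).

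DOCK8 was scarce throughout. A549 wild-type cells had 0.7 and 0.59 TPM in normal and 2.0 and 2.07 TPM in oncosphere culture, and the knockout libraries 0.06 and 0.33 TPM, then 0.53 and 0.21 TPM. H2023 wild-type libraries had 0.09 and 0.97 TPM in normal and 0.28 and 1.78 TPM in oncosphere culture, and the knockout libraries 0.01 and 0 TPM, then 0.22 and 0.03 TPM. The ranges did not overlap in any of the 4 comparisons, but in H2023 they came close, with 0.28 TPM in the lower wild-type against 0.22 TPM in the higher knockout oncosphere library. The knockout mean was 30.2% and 18.2% of wild type in A549 and 0.943% and 12.1% in H2023 (normal, then oncosphere culture). For DOCK8 the authors' deposited tables list log2 fold changes of -3.44 (SE 0.72), -3.75 (SE 0.5), -5.34 (SE 1.24) and -3.29 (SE 0.89), the widest errors of the 4 genes in H2023. In A549 normal culture mean TPM fell 3.31-fold, a smaller fall than the deposited log2 value of -3.44, and the reason was not tested. In bulk RNA, fewer cells of a type and less RNA per cell cannot be told apart.

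**Figure D1:**
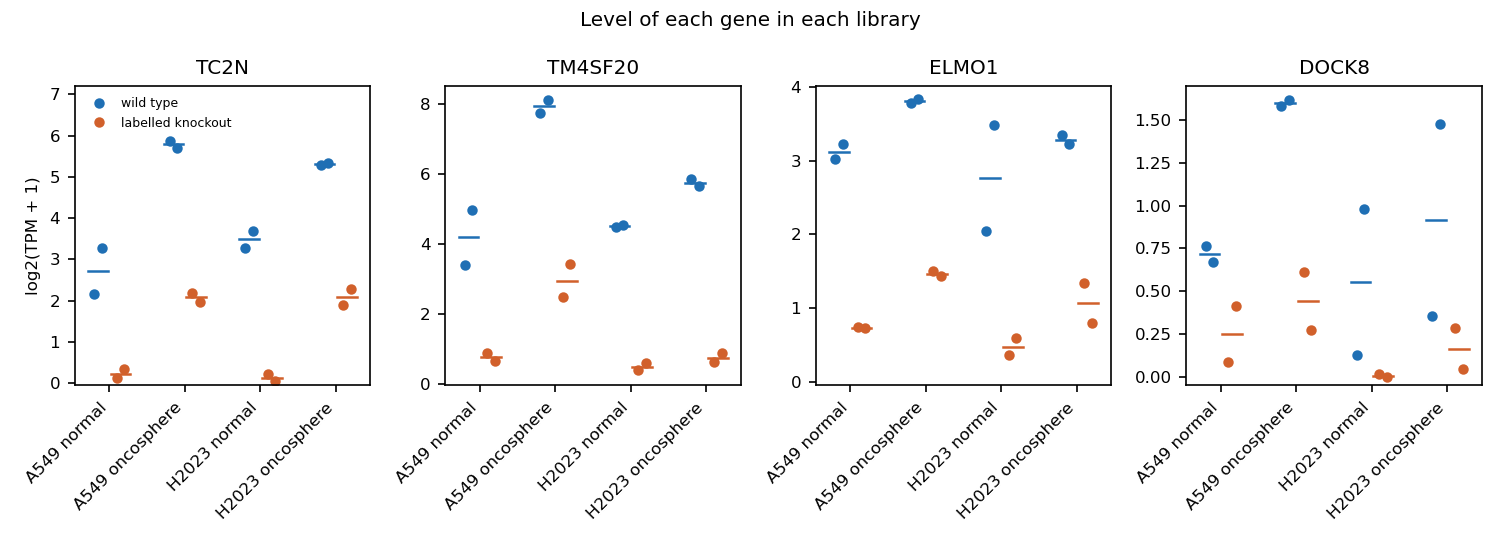
Level of each gene in each of the 16 libraries on the log2(TPM + 1) scale (vertical axis, a separate scale per panel), by line and culture (horizontal axis). Points are libraries, short bars are means of 2, blue is wild type and orange is labelled knockout. Each orange pair lies below its blue pair, and the A549 wild-type oncosphere libraries are the highest in all 4 panels.

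How common this pattern was sets its scale. By the authors' deposited adjusted p-value under 0.05, 10.9% of tested genes were lower in the A549 knockout in normal and 11.4% in oncosphere culture, and 6.97% and 2.85% in H2023. Among the 14753 genes tested in all 4 tables, 54 (0.366%) were called lower in all 4 and 12 higher, and all 4 genes described here are among the 54. Neither this nor the ranks that follow are independent of their choice as lower in all 4 comparisons. Ranked by mean deposited log2 fold change within these 54, TM4SF20 came 4th (-5.57), TC2N 7th (-4.83), DOCK8 15th (-3.95) and ELMO1 16th (-3.74). In TPM, both knockout libraries lay below both wild-type libraries in all 4 comparisons for 330 genes, 1.81% of all. The 2 cultures and 2 lines use different libraries, so no control sample is shared between these comparisons, but the 2 comparisons of a line share a clone.

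Over the 8 groups the order of the means was similar for the 4 genes. A549 wild-type oncosphere culture was highest and H2023 wild-type oncosphere culture next in each case (54.2 and 38.6 TPM for TC2N, 246 and 52.5 for TM4SF20, 13.1 and 8.79 for ELMO1, 2.04 and 1.03 for DOCK8), without overlap between those neighbours. H2023 knockout normal culture was lowest in each case. Among the neighbours in between, the wild-type normal-culture groups of the 2 lines overlapped for TM4SF20, ELMO1 and DOCK8, and did not for TC2N (8.73 to 11.86 TPM in H2023 against 3.49 to 8.72 TPM in A549). For ELMO1 every wild-type group lay above every knockout group, whereas the A549 wild-type normal-culture and the highest knockout oncosphere libraries overlapped for TC2N and TM4SF20. With 1 TPM added, replicate pairs differed by more than 2-fold for 0.998% to 3.57% of the 14823 genes with a mean of at least 1 TPM, a set without DOCK8. By plain TPM ratio several pairs of the 4 genes differed by more than 2-fold. Examples are ELMO1 and DOCK8 in H2023 wild-type normal culture and TC2N and TM4SF20 in A549 wild-type normal culture.

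Oncosphere against normal culture was not used in choosing the genes and was tested with limma on log2(TPM + 1), 8 libraries per line, with Benjamini-Hochberg adjustment over all genes. In wild-type A549 all 4 genes rose, where 19.0% of all genes did: TC2N by 3.06 (SE 0.33, limma adjusted p = 0.000308) and TM4SF20 by 3.76 (SE 0.49, limma adjusted p = 0.000694) on the log2 scale. DOCK8 rose by 0.88 (SE 0.17, limma adjusted p = 0.00487) and ELMO1 by 0.69 (SE 0.17, limma adjusted p = 0.0152). As ratios of mean TPM these were 8.88-fold for TC2N, 12.4-fold for TM4SF20, 3.16-fold for DOCK8 and 1.68-fold for ELMO1. Both oncosphere libraries lay above both normal-culture libraries for all 4, which held for 33.7% of all genes. The ELMO1 call ended without either oncosphere library or without the first normal-culture library (limma adjusted p between 0.0508 and 0.088), and the DOCK8 call with a pseudocount of 0.1 (limma adjusted p = 0.0568).

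The rise also occurred in the A549 knockout clone, from a far lower level. There 3 of 4 genes rose, where 10.9% of all genes did. TC2N went from a mean of 0.175 to 3.24 TPM (log2 change 1.85, SE 0.33, limma adjusted p = 0.00643), TM4SF20 from 0.69 to 7.1 TPM (2.19, SE 0.49, limma adjusted p = 0.0162) and ELMO1 from 0.66 to 1.77 TPM (0.74, SE 0.17, limma adjusted p = 0.0209). DOCK8 did not pass (0.20, 95% interval -0.20 to 0.60, limma adjusted p = 0.48). Both oncosphere libraries lay above both normal-culture libraries for the other 3 genes, which held for 30.6% of all genes. Ratios of mean TPM were 18.5-fold for TC2N, 10.3-fold for TM4SF20, 2.67-fold for ELMO1 and 1.9-fold for DOCK8. The 1 TPM added before taking logs shrinks log2 changes that start below 1 TPM. With 0.1 added, the knockout and wild-type changes were 3.67 and 3.27 for TC2N and 3.11 and 3.835 for TM4SF20. They were 1.29 and 0.75 for ELMO1 and 0.75 and 1.52 for DOCK8. Leaving out the second oncosphere or either normal-culture knockout library left 1 of the 4 called, TC2N: the TM4SF20 p was then 0.0672 to 0.0932, and no fit without a knockout library called ELMO1 (0.0711 to 0.101), all limma adjusted. Whether the rise differed between the genotypes was not tested, since that difference is made of the knockout contrasts by which the genes were chosen.

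In H2023, TC2N was the gene that rose in both genotypes. In wild type it rose by 1.82 (SE 0.22, limma adjusted p = 0.00416), from a mean of 10.3 to 38.6 TPM, and TM4SF20 rose by 1.23 (SE 0.17, limma adjusted p = 0.00673), from 21.7 to 52.5 TPM. These are 2 of 4 genes, where 3.96% of all genes rose. In the knockout clone TC2N rose by 1.96 (SE 0.22, limma adjusted p = 0.00201), from 0.1 to 3.3 TPM, which is 1 of 4 where 7.68% of all genes rose. TM4SF20 did not pass there (0.25, 95% interval -0.17 to 0.67, limma adjusted p = 0.334). As a ratio of mean TPM the TC2N rise was 33.0-fold in knockout and 3.75-fold in wild type. With a pseudocount of 0.1 its log2 changes were 4.16 and 1.91. The oncosphere pair lay above the normal-culture pair for 2 of 4 genes in wild type (TC2N and TM4SF20), as for 14.6% of all genes, and for 4 of 4 in knockout, as for 22.7% of all genes. ELMO1 did not pass in wild type (0.52, interval -0.59 to 1.62, limma adjusted p = 0.462) or knockout (0.59, interval -0.52 to 1.70, limma adjusted p = 0.391), and both intervals hold the A549 changes of 0.69 and 0.74. DOCK8 did not pass either (0.36, limma adjusted p = 0.563, and 0.16, limma adjusted p = 0.815).

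Several measures moved with culture. The mitochondrial share was higher in every oncosphere than in any normal-culture library, as given above, and the median log2 change over all genes was -0.18 in H2023 wild type and -0.12 in its knockout clone. With mitochondrial genes left out and TPM rescaled these medians were -0.016 and 0.019, and no call of the 4 genes changed. Of leukocytes, the cells in which DOCK8 is best known, 4 markers were measured (CD14, CD68, LCP1 and CORO1A, none at 0 in any library), and PTPRC and CD3E were not analysed here. Their sum was 145 and 227.7 TPM in A549 wild-type oncosphere culture against 48.5 and 65.5 TPM in normal culture, and 60.4 and 80.3 TPM against 38.3 and 50.7 TPM in the knockout clone. In H2023 it was 36.9 and 95.8 TPM against 42.7 and 45.7 TPM in wild type, and 74.3 and 132.1 TPM against 35.01 and 41.1 TPM in knockout. CD68, with 28.7 to 179 TPM, made up most of the range, LCP1 and CORO1A stayed at or under 6.38 TPM, and their part in the results was not tested. The endothelial marker PECAM1 reached at most 2.76 TPM and the 3 fibroblast markers measured at most 4.01 TPM in sum.

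**Figure D2:**
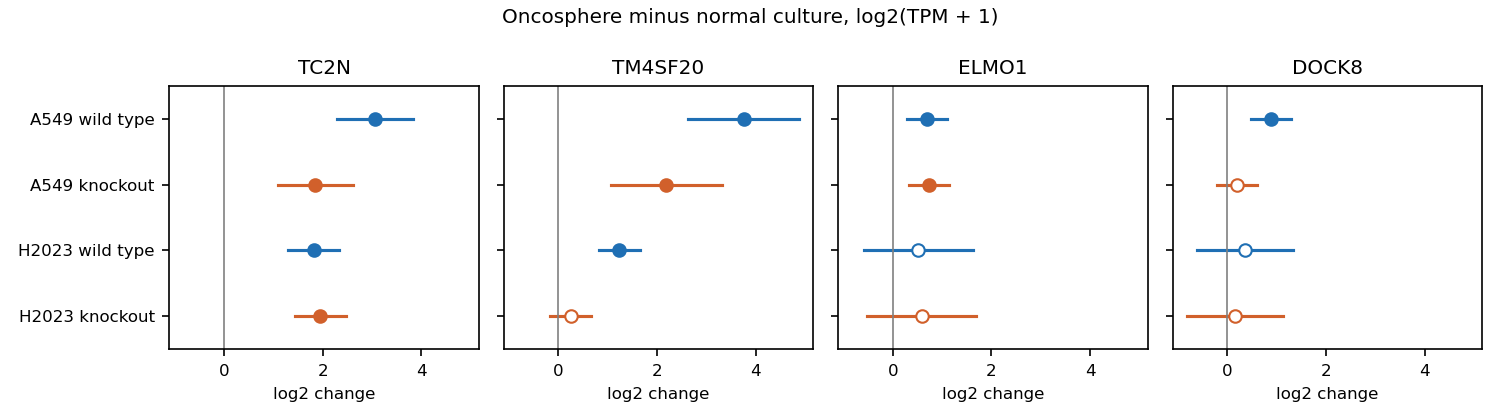
Oncosphere minus normal culture for each gene on the log2(TPM + 1) scale (horizontal axis), by line and genotype (rows). Points are limma estimates from 2 against 2 libraries, bars are 95% intervals, and filled points passed a limma adjusted p of 0.05. TC2N is filled in all 4 rows, TM4SF20 in 3, ELMO1 in 2 and DOCK8 in 1.

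The lines themselves were compared in wild-type cells. In normal culture none of the 4 genes passed between H2023 and A549 in limma over all 16 libraries, where 41.5% of all genes did (49.4% at an unadjusted p under 0.05). TC2N was nearest, at 0.76 on the log2 scale (95% interval 0.11 to 1.41, limma adjusted p = 0.0585). The others were 0.33 for TM4SF20 (limma adjusted p = 0.559), -0.36 for ELMO1 (limma adjusted p = 0.45) and -0.17 for DOCK8 (limma adjusted p = 0.715). These values hung on single libraries: without the second A549 library TC2N (1.32, limma adjusted p = 0.0022) and TM4SF20 (1.11, limma adjusted p = 0.024) passed as higher in H2023, and without the second H2023 library ELMO1 passed as lower (-1.08, limma adjusted p = 0.00678). In oncosphere culture TM4SF20 was lower in H2023 by a log2 difference of -2.20 (SE 0.41, 95% interval -3.09 to -1.30, limma adjusted p = 0.000923), in 2 of 2 libraries. That is 1 of 4 genes, where 24.4% of all genes were lower. TC2N (-0.48, limma adjusted p = 0.208), ELMO1 (-0.52, limma adjusted p = 0.244) and DOCK8 (-0.69, limma adjusted p = 0.0993) did not pass, although DOCK8 passed without the second H2023 library (-1.25, limma adjusted p = 0.00571).

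The culture rise of TM4SF20 in wild-type cells was itself smaller in H2023 than in A549. The test of the difference between the lines, added after the values were seen, gave -2.52 on the log2 scale (SE 0.58, 95% interval -3.79 to -1.26, limma adjusted p = 0.0147). For 10.3% of all genes the H2023 change minus the A549 change passed below 0 in this test, through a smaller rise or a larger fall in H2023. For TC2N the difference was -1.24 (limma adjusted p = 0.0709), for ELMO1 -0.17 (limma adjusted p = 0.859) and for DOCK8 -0.52 (limma adjusted p = 0.491). Without the second A549 normal-culture library TC2N passed too (-1.80, limma adjusted p = 0.00651).

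Relatives and partners of the 4 genes were followed through the knockout comparisons with 7 lists, of which 88 of 90 genes were measured (WASF3 and COL1A2 were not analysed here). In A549, 13 rose and 8 fell in normal culture, where 15.4% of all genes changed, and 11 rose and 12 fell in oncosphere culture, where 19.5% changed (limma adjusted p under 0.05). In H2023, 2 rose in normal and 3 in oncosphere culture, where 0.806% and 1.54% of all genes changed, and none fell. The H2023 calls rest on the spread pooled over the line's 8 libraries: without any 1 of the 4 libraries compared, the counts were 0. The A549 counts dropped to 12 and 10 without the first or second normal-culture knockout library, and in oncosphere culture to 14 and 12 without the first or second knockout library and to 14 without the second wild-type library. By the authors' deposited adjusted p-values the lists had 18 higher and 16 lower genes in A549 normal culture, 12 and 14 in oncosphere culture, 11 and 11 in H2023 normal culture and 6 and 4 in oncosphere culture, where 22.1%, 20.7%, 10.8% and 5.07% of all tested genes were called in either direction. At an unadjusted p under 0.05, limma passed 16.5% and 20% of all genes in the H2023 comparisons.

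Among the TM4SF20 relatives, 4 of 5 fell in A549 normal and 3 of 5 in oncosphere culture, where 8.83% and 10.1% of all genes fell. The list medians were -1.46 and -0.61 against -0.033 and 0.027 over all genes on the log2 scale. TM4SF4, a surface protein of the same family, had 107.94 and 134.83 TPM in wild-type normal culture and 3.67 and 4.85 TPM in knockout (log2 change -4.54, limma adjusted p = 0.000162). In oncosphere culture it went from 549.82 and 460.02 to 42.29 and 72.95 TPM (-3.16, limma adjusted p = 0.000198). TM4SF5 fell as well, from 2.43 and 4.7 to 0.11 and 0.08 TPM (-2.01, limma adjusted p = 0.00406) and from 91.22 and 60.18 to 2.42 and 2.0 TPM (-4.55, limma adjusted p = 9.87e-05). These 4 calls held without any 1 library compared. TM4SF1, the most abundant member of the family here, fell by 0.92 and 0.61 (limma adjusted p = 0.00995 and 0.0365), calls that both ended with all 16 libraries in the fit (limma adjusted p = 0.168 and 0.373). The normal-culture call also ended without the second knockout or first wild-type library, and the oncosphere call without any 1 of the 4 libraries compared.

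TM4SF18 went opposite ways in the lines. In A549 normal culture it fell from 59.92 and 42.96 to 16.88 and 18.89 TPM (-1.46, limma adjusted p = 0.00205), and in oncosphere culture it stood at 53.61 and 44.4 TPM against 52.39 and 45.47 TPM. In H2023 it rose from 1.92 and 1.81 to 8.86 and 9.48 TPM (1.83, limma adjusted p = 0.0321) and, in oncosphere culture, from 1.64 and 0.92 to 8.07 and 10.3 TPM (2.17, limma adjusted p = 0.019). The difference between the lines was not tested for it. In H2023 TM4SF4 was 12.63 and 17.74 TPM against 3.64 and 2.29 TPM in normal culture, which missed the limma threshold (adjusted p = 0.0545) and was called lower in the authors' deposited table (log2 fold change -1.95, adjusted p = 1.23e-05). TM4SF5 did not pass by limma in H2023 normal (-1.02, adjusted p = 0.433) or oncosphere culture (-1.85, adjusted p = 0.154). Its oncosphere values were 6.52 and 1.63 TPM against 0.25 and 0.21 TPM, called lower in the authors' deposited table (log2 fold change -3.71, adjusted p = 0.0151).

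ELMO and DOCK relatives showed no common direction in A549. There 2 of 12 rose in each culture, where 6.52% and 9.39% of all genes rose, and 1 fell in oncosphere culture, where 10.1% fell. None passed in H2023. The authors' deposited tables call 2 higher and 1 lower in each A549 culture, and 2 and then 1 higher in H2023 normal and oncosphere culture. For all tested genes those tables call 22.1%, 20.7%, 10.8% and 5.07% in either direction, in the same order. DOCK10, which like DOCK8 acts on Cdc42, rose in A549 normal culture from 13.33 and 6.99 to 26.58 and 26.42 TPM (1.36, limma adjusted p = 0.0145) and in oncosphere culture from 2.17 and 2.24 to 13.91 and 10.38 TPM (2.02, limma adjusted p = 0.00182). The first of these ended without either knockout library (adjusted p up to 0.0803). In H2023 DOCK10 was 17.4 and 18.04 TPM against 18.58 and 15.69 TPM in normal culture. DOCK9 missed the limma threshold in H2023, at 20.06 and 21.61 TPM against 44.71 and 37.18 TPM in normal culture (0.94, limma adjusted p = 0.146). Its oncosphere values were 14.05 and 9.82 TPM against 31.44 and 20.82 TPM (1.06, limma adjusted p = 0.0859). The authors' deposited tables call DOCK9 higher in both H2023 cultures (log2 fold changes 0.62 and 0.9) and in neither A549 culture. DOCK6 fell in A549 oncosphere culture from 11.46 and 14.31 to 7.72 and 5.97 TPM (-0.83, limma adjusted p = 0.0382), a call that ended without any 1 of the libraries compared. DOCK5, an ELMO partner and the most abundant of the list, differed by between -0.17 and 0.16 on the log2 scale over the 4 comparisons and passed in none (limma adjusted p from 0.48 to 0.899).

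Of the 16 genes upstream of ELMO and DOCK, 3 rose and 1 fell in A549 normal culture, 1 fell in oncosphere culture, and 1 and 2 rose in H2023. Over all genes 6.52% rose and 8.83% fell in A549 normal culture and 10.1% fell in oncosphere culture. In H2023 0.258% and 0.796% rose. LRP1, an engulfment receptor, rose in A549 normal culture from 3.07 and 4.39 to 16.34 and 20.38 TPM (2.04, limma adjusted p = 0.00109) and fell in oncosphere culture from 22.34 and 26.77 to 14.22 and 11.15 TPM (-0.90, limma adjusted p = 0.0185). The fall ended without the second knockout or second wild-type library. AXL, a receptor tyrosine kinase, rose in A549 normal culture from 55.9 and 35.08 to 105.81 and 93.02 TPM (1.15, limma adjusted p = 0.0341), a call that ended without either knockout or the second wild-type library. In A549 oncosphere culture AXL had 15.45 and 24.88 TPM against 13.9 and 9.22 TPM in knockout (-0.74, limma adjusted p = 0.114), and the authors' deposited table calls it lower there (log2 fold change -0.78, adjusted p = 0.0388). In H2023 AXL rose from 63.53 and 69.1 to 156.13 and 138.58 TPM in normal culture (1.14, limma adjusted p = 0.0317) and from 13.01 and 10.69 to 22.72 and 20.01 TPM in oncosphere culture (0.80, limma adjusted p = 0.0465). LRP1 rose in the latter too (1.11, limma adjusted p = 0.0473). Both H2023 oncosphere calls ended with a pseudocount of 0.1 and with the replicate number as a block, and that of AXL also with all 16 libraries. GULP1, an engulfment adaptor and the most abundant of the list, missed the limma threshold in H2023 (-0.84, adjusted p = 0.0713, and -0.69, adjusted p = 0.0808) and was called lower in the authors' deposited tables (log2 fold changes -1.05 and -0.85).

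The GTPases RAC1 and CDC42 did not pass by limma. RAC1 had 367.28 and 335.19 TPM in A549 wild-type normal culture and 281.53 and 266.61 TPM in knockout (-0.36, limma adjusted p = 0.0769), and CDC42 had 134.36 and 104.0 TPM against 97.85 and 101.58 TPM (-0.24, limma adjusted p = 0.236). The authors' deposited table calls RAC1 lower there (log2 fold change -0.32, adjusted p = 0.0409). In H2023 RAC1 differed by -0.13 and -0.03 and CDC42 by -0.06 and 0.06, with limma adjusted p of at least 0.597. Of the 21 measured Rac, Cdc42 and actin effector genes 4 rose in A549 normal culture, 3 rose and 1 fell in oncosphere culture, and none passed in H2023. Over all genes 6.52% rose in A549 normal culture, and 9.39% rose and 10.1% fell in oncosphere culture. The authors' deposited tables call 5 of these effector genes higher and 3 lower in A549 normal culture, and 4 higher and 1 lower in oncosphere culture. Of 19 tested in H2023 normal culture they call 1 higher and 5 lower, and none in oncosphere culture. For all tested genes those tables call 22.1%, 20.7%, 10.8% and 5.07% in either direction, in the same order. ABI2, a subunit of the WAVE complex that nucleates actin below Rac, rose from 28.89 and 24.01 to 56.4 and 46.19 TPM (0.93, limma adjusted p = 0.00643) and from 22.51 and 19.23 to 45.87 and 41.42 TPM (1.03, limma adjusted p = 0.00264). Both calls held without any 1 library compared. BRK1, another WAVE subunit, differed by 0.03 and 0.02 in A549.

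Of 15 other tandem C2 genes, 1 rose and 2 fell in A549 normal culture and 5 fell in oncosphere culture, and none passed in H2023. Shares over all genes were 6.52% rising and 8.83% falling in A549 normal culture and 10.1% falling in oncosphere culture. SYT13, a synaptotagmin, fell in A549 oncosphere culture from 30.68 and 38.8 to 7.77 and 6.62 TPM (-2.12, limma adjusted p = 0.0012) and stood at 1.03 and 2.19 TPM against 1.68 and 2.23 TPM in normal culture. Within the p53 list of 8, 1 gene fell in A549 normal culture, where 8.83% of all genes fell. In oncosphere culture 2 rose, where 9.39% of all genes rose, and none passed by limma in H2023. For H2023 oncosphere culture the authors' deposited table calls 1 lower, GDF15 (log2 fold change -1.37, adjusted p = 9.13e-05), and none higher. Wild-type levels of GDF15 there were 215.81 and 247.22 TPM, and knockout levels were 72.22 and 117.22 TPM (-1.32, limma adjusted p = 0.144). Between the A549 oncosphere groups GDF15 differed by -0.02 (limma adjusted p = 0.973). CDKN1A, the p53 target that halts the cell cycle, rose in A549 oncosphere culture from 102.48 and 66.87 to 238.25 and 229.47 TPM (1.49, limma adjusted p = 0.00754), and BAX, which promotes apoptosis, rose from 118.82 and 114.19 to 178.67 and 195.32 TPM (0.68, limma adjusted p = 0.00672). The CDKN1A call ended when all 16 libraries shared the spread (adjusted p = 0.0608) and the BAX call without the second knockout library (adjusted p = 0.0521). GDF15, a secreted p53-responsive factor, fell in A549 normal culture from 97.26 and 114.63 to 37.43 and 30.86 TPM (-1.61, limma adjusted p = 0.00678), a call that ended without the second knockout library (adjusted p = 0.0568).

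For the CREB3L1 axis linked to TM4SF20, 3 of 11 measured genes rose in A549 normal culture, where 6.52% of all genes rose. In A549 oncosphere culture 4 rose and 1 fell, where 9.39% and 10.1% of all genes did so, and none passed in H2023. CREB3L1 fell in A549 oncosphere culture, from 11.32 and 6.97 to 0.4 and 0.31 TPM (-2.87, limma adjusted p = 0.000243). In normal culture its values ran the other way, with 0.3 and 0.04 TPM against 1.2 and 0.92 TPM (0.82, limma adjusted p = 0.0522). The authors' deposited table calls CREB3L1 higher there (log2 fold change 2.66, adjusted p = 0.0103). In H2023 it differed by -0.48 in normal and -0.10 in oncosphere culture (limma adjusted p = 0.621 and 0.935). COL4A1, a type IV collagen chain, rose from 30.96 and 26.44 to 66.69 and 63.62 TPM (1.16, limma adjusted p = 0.00185) and, in oncosphere culture, from 10.13 and 8.43 to 35.89 and 31.73 TPM (1.76, limma adjusted p = 0.000181). COL4A2, its partner chain, rose by 0.92 and 1.19 (limma adjusted p = 0.00535 and 0.00116). In H2023 COL4A1 was 31.53 and 11.97 TPM against 50.02 and 42.73 TPM in normal culture, which did not pass (1.2, limma adjusted p = 0.273). In its oncosphere culture COL4A1 had 7.95 and 3.95 TPM against 17.24 and 14.61 TPM (1.34, limma adjusted p = 0.183), and COL4A2 had 10.51 and 5.0 TPM against 24.66 and 21.58 TPM (1.53, limma adjusted p = 0.116). The authors' deposited table calls both higher there (log2 fold changes 1.36 and 1.49, adjusted p = 0.0298 and 0.00273).

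**Figure D3:**
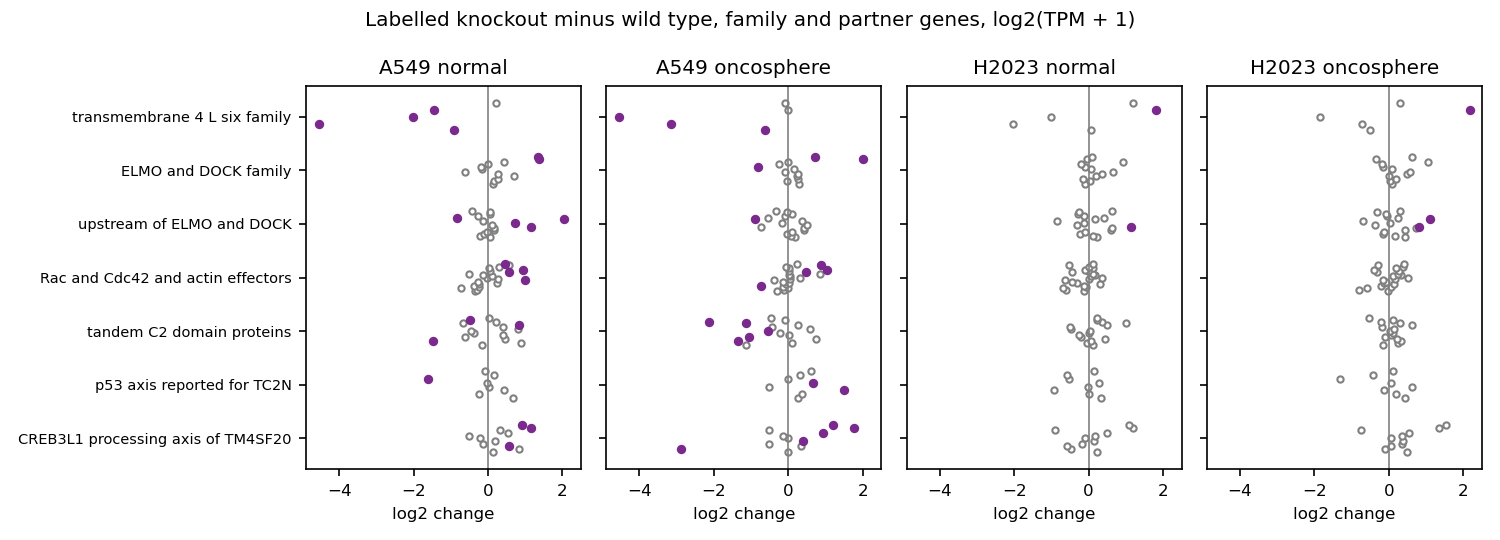
Labelled knockout minus wild type on the log2(TPM + 1) scale (horizontal axis) for the 88 genes of 7 lists (rows), by line and culture (panels). Each point is a gene, and filled points passed a limma adjusted p of 0.05: 21 and 23 in the A549 panels against 2 and 3 in the H2023 panels.

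The measured genes next to each member were examined to set it beside its surroundings. Of 39 neighbours (5 on each side, 4 on the telomere side of DOCK8), 2 fell in A549 normal culture, 12 in A549 oncosphere, 4 in H2023 normal and 5 in H2023 oncosphere culture, where 8.83%, 10.1%, 0.549% and 0.746% of all genes fell by the same limma threshold. In A549 3 rose in each culture, where 6.52% and 9.39% of all genes rose, and none rose in H2023, where 0.258% and 0.796% did. The H2023 neighbour calls named below held with all 16 libraries in the fit and ended in the 4-library fit, and those of FBLN5, MFF, AGFG1 and COL4A3 ended without any 1 of the libraries compared. In A549 oncosphere culture the CBWD1 call ended without any 1 of the libraries compared. Those of FBLN5 and KANK1 ended without either knockout or the second wild-type library, and that of MFF without either knockout or the first wild-type library. The PID1 call ended there without the first knockout or either wild-type library, and in normal culture without either knockout or the first wild-type library. The CBWD1, KANK1 and PID1 oncosphere calls also ended in the 4-library fit. Median differences of the 10 TM4SF20 neighbours were -0.07 and 0.21 in A549 and -0.69 and -0.49 in H2023, where 9 of 10 were below 0 in both cultures, against 47.3% and 41.0% of all genes. Such counts also lay to 1 side for other members: 10 of 10 ELMO1 neighbours were below 0 in H2023 oncosphere culture, and 9 of 10 TC2N but 1 of 9 DOCK8 neighbours in A549 normal culture, where 53.8% of all genes were.

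FBLN5 (chromosome 14, 91869412 to 91947987, minus strand), which encodes the elastic-fibre protein fibulin-5, has its 3′ end 1876 bases beyond TC2N's 5′ end and is transcribed toward it. It had 9.59 and 14.0 TPM in A549 wild-type oncosphere culture against 2.63 and 3.67 TPM in knockout (-1.61, limma adjusted p = 0.0162). In H2023 it fell from 2.52 and 4.01 to 0.03 and 0.2 TPM in normal culture (-1.92, limma adjusted p = 0.0328) and from 8.07 and 5.71 to 0.42 and 0.28 TPM in oncosphere culture (-2.53, limma adjusted p = 0.0154). In A549 normal culture it was 1.35 and 3.96 TPM against 0.99 and 0.78 TPM (-0.86, limma adjusted p = 0.14), and the authors' deposited tables call it lower in all 4 comparisons. On the other side CATSPERB, a sperm channel subunit named here after its values were seen, overlaps TC2N's 3′ end by 957 bases on the same strand, so reads there could be counted to either gene. It read 7.19 and 6.76 TPM against 0.06 and 0 TPM in A549 oncosphere culture (-2.95, limma adjusted p = 8.06e-05) and 1.56 and 1.22 TPM against 0 and 0 TPM in H2023 oncosphere culture, where it is listed at 0 in both knockout libraries. The nearest gene start on that side is that of ENSG00000260711, a sense-intronic transcript that stayed at or under 0.47 TPM. It fell in A549 oncosphere culture from 0.47 and 0.37 to 0.03 and 0.03 TPM (-0.46, limma adjusted p = 0.0162), a call that ended without either knockout or the first wild-type library, and the authors' deposited tables call it lower in the oncosphere culture of both lines.

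Beside TM4SF20, MFF (which drives mitochondrial fission) and AGFG1 (a nucleoporin-like trafficking factor) fell in H2023. MFF went from 306.78 and 289.43 to 157.96 and 169.97 TPM in normal culture (-0.86, limma adjusted p = 0.0324) and from 197.57 and 227.32 to 114.61 and 126.61 TPM in oncosphere culture (-0.81, limma adjusted p = 0.0312). AGFG1 went from 186.02 and 193.08 to 120.92 and 118.03 TPM (-0.66, limma adjusted p = 0.0328) and fell by 0.58 in oncosphere culture (limma adjusted p = 0.0369). In A549 AGFG1 did not pass, and MFF rose in oncosphere culture from 59.52 and 67.79 to 88.51 and 93.5 TPM (0.51, limma adjusted p = 0.0226). COL4A3, a further type IV collagen chain, fell in A549 oncosphere culture from 3.28 and 4.82 to 0.46 and 0.54 TPM (-1.74, limma adjusted p = 0.00726) and in H2023 normal culture from 7.58 and 8.8 to 1.58 and 1.18 TPM (-1.95, limma adjusted p = 0.0444), and the authors' deposited tables call it lower in all 4 comparisons. COL4A4, the chain encoded beside it, fell in A549 oncosphere culture from 1.34 and 2.04 to 0.44 and 0.24 TPM (-1.0, limma adjusted p = 0.00723), a call that ended without the second knockout library. It had 9.14 and 13.54 TPM against 2.95 and 2.51 TPM in H2023 normal culture (-1.71, limma adjusted p = 0.0574) and 8.28 and 11.2 TPM against 3.03 and 4.76 TPM in oncosphere culture (-1.14, limma adjusted p = 0.0962). The authors' deposited tables call it lower in both (log2 fold changes -2.13 and -1.25, adjusted p = 6.21e-22 and 0.00208). PID1 rose in A549, from 2.41 and 3.72 to 14.33 and 11.4 TPM in normal culture (1.78, limma adjusted p = 0.0109) and by 1.33 in oncosphere culture (limma adjusted p = 0.0258).

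Around ELMO1 the nearest measured genes were AOAH and GPR141. AOAH, an enzyme that inactivates lipopolysaccharide, stayed at or under 1.58 TPM and did not pass. GPR141, an orphan receptor, fell in oncosphere culture from 7.93 and 9.43 to 4.09 and 2.32 TPM in A549 (-1.23, limma adjusted p = 0.0123) and from 5.32 and 2.56 to 0.18 and 0.05 TPM in H2023 (-2.09, limma adjusted p = 0.0287). The A549 call of GPR141 ended without the second knockout or second wild-type library and with a pseudocount of 0.1, and its H2023 call without either knockout library. KIAA0895 fell in A549 oncosphere culture from 10.69 and 9.06 to 5.18 and 3.23 TPM (-1.09, limma adjusted p = 0.0108), a call that ended without the second knockout or first wild-type library. Its normal-culture values were 7.05 and 6.35 TPM, and 4.54 and 4.43 TPM in knockout (-0.49, limma adjusted p = 0.165), and the authors' deposited tables call it lower in both. Next to DOCK8, KANK1, a regulator of actin at the cell cortex, fell in A549 oncosphere culture from 11.57 and 16.73 to 7.01 and 8.39 TPM (-0.78, limma adjusted p = 0.0334). Its normal-culture values ran the other way, with 3.47 and 3.61 TPM against 7.04 and 6.05 TPM (0.73, limma adjusted p = 0.0504), and the authors' deposited table calls it higher there (log2 fold change 0.9, adjusted p = 0.000515). VLDLR, a lipoprotein receptor, likewise had 10.95 and 10.7 TPM against 17.42 and 16.96 TPM in A549 normal culture (0.62, limma adjusted p = 0.0562, called higher in the authors' deposited table) and fell in oncosphere culture from 31.48 and 22.67 to 10.19 and 7.94 TPM (-1.47, limma adjusted p = 0.00139). CBWD1 rose in oncosphere culture from 22.52 and 20.66 to 31.71 and 29.73 TPM (0.49, limma adjusted p = 0.0294). KANK1 and CBWD1 differed in H2023 by -0.18 to 0.23 and did not pass (limma adjusted p from 0.535 to 0.786).

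**Figure D4:**
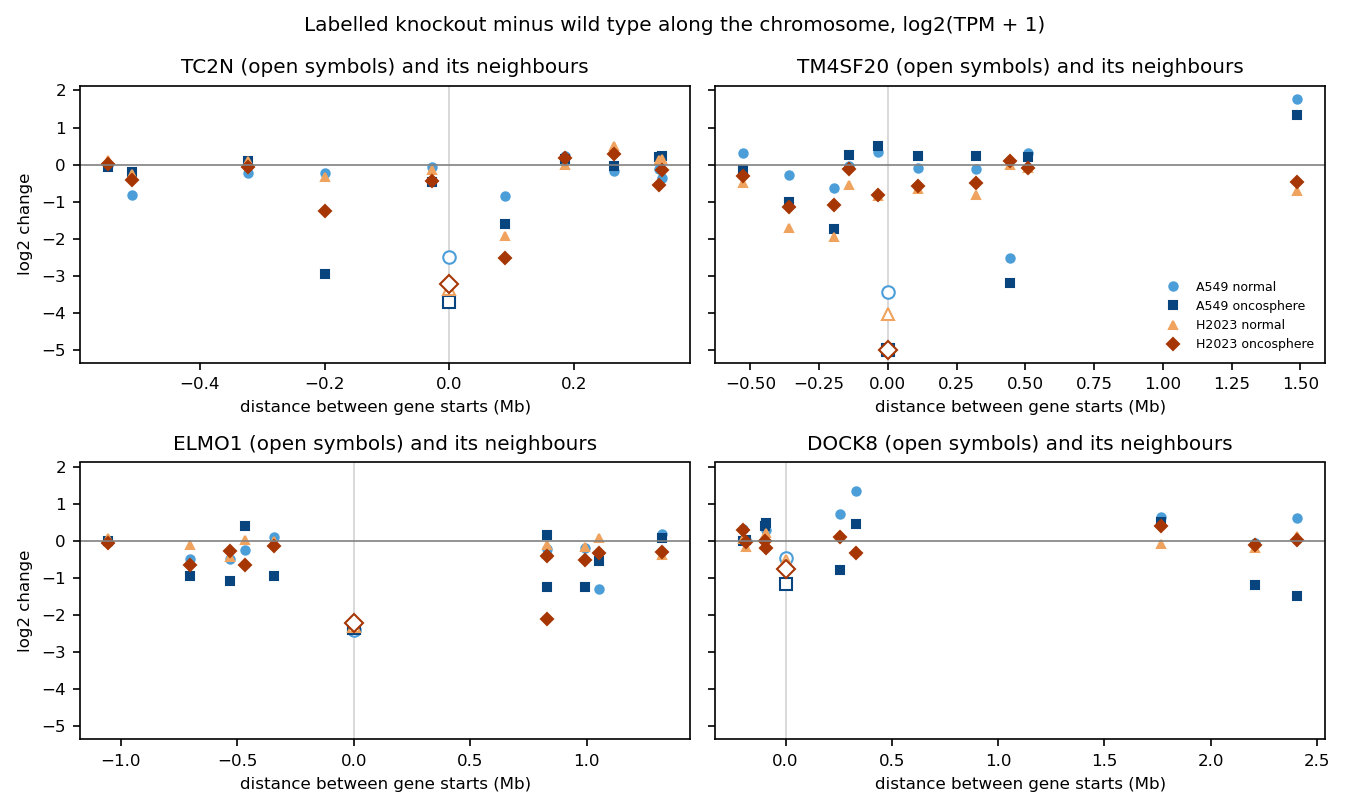
Labelled knockout minus wild type on the log2(TPM + 1) scale (vertical axis) for each gene (open symbols, at 0) and its measured neighbours (filled symbols), by distance between gene starts in megabases (horizontal axis). Symbols mark line and culture. In all 4 comparisons the TC2N, TM4SF20 and ELMO1 symbols lie below -2, and FBLN5, CATSPERB, CCL20 and GPR141 are the neighbours that do so in at least 1.

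Finally, the genes whose levels ran most like each member's were listed by Pearson correlation of log2(TPM + 1) over the 16 libraries, among 14822 genes with a mean of at least 1 TPM. The points share clones and cultures, so these values describe the libraries and carry no p. For TC2N they were RASSF9 (0.95), NDNF (0.943), the coagulation factors F7 (0.941) and F5 (0.939), and TM4SF20 (0.935). For TM4SF20 the nearest was FBLN5 (0.961), then TC2N (0.935), ELMO1 (0.93), RASSF9 (0.919) and NDNF (0.917). ELMO1 was nearest to RASSF9 (0.941), TM4SF20 (0.93), TC2N (0.901), the neuropeptide Y receptor gene NPY1R (0.887) and FBLN5 (0.875). DOCK8, itself below a mean of 1 TPM, was nearest to NPY1R (0.925), NPY5R (0.853), LINC01376 (0.851), the neurotensin gene NTS (0.838) and PDIA6 (0.834), and its correlations with TC2N, TM4SF20 and ELMO1 were 0.786, 0.815 and 0.823.

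RASSF9, a Ras-association domain protein, had the shared pattern at moderate levels. It fell in the knockout libraries from 6.08 and 7.77 to 0.52 and 0.71 TPM in A549 normal culture (-2.29, limma adjusted p = 0.00131) and from 13.23 and 11.89 to 4.61 and 2.71 TPM in oncosphere culture (-1.57, limma adjusted p = 0.00347). In H2023 it fell from 5.55 and 7.34 to 0.88 and 0.82 TPM (-2.0, limma adjusted p = 0.0207) and from 8.3 and 9.93 to 2.33 and 2.94 TPM (-1.48, limma adjusted p = 0.0348). NPY1R fell in A549 from 5.67 and 13.34 to 0.41 and 0.7 TPM (-2.66, limma adjusted p = 0.00242) and from 32.94 and 40.42 to 2.23 and 2.11 TPM (-3.56, limma adjusted p = 0.000407). The H2023 values of NPY1R were 0.8 and 4.53 TPM against 0.08 and 0.59 TPM, then 3.45 and 12.95 TPM against 0.4 and 0.82 TPM, which did not pass (limma adjusted p = 0.416 and 0.141). The authors' deposited tables call NPY1R lower in H2023 oncosphere culture (log2 fold change -3.43, adjusted p = 4.06e-06) but not in normal culture (-3.48, adjusted p = 0.12). Since likeness to a member includes the knockout difference, these tests are not independent of how the 2 genes were picked.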

How the data were processed

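RNA-seq of 16 libraries (stranded mRNA kit, per the labels' protocols) was used as 4 deposited tables of 18361 rows and 18227 genes, 1 per line and culture. The submitters' processing notes name HISAT2, StringTie and GRCh38 without roles. The expression values are TPM made by the authors, summing to between 991838 and 998125 per library, and how reads were counted by strand is not given in the sources used here. The authors also deposited a mean normalized signal, log2 fold changes (knockout over wild type) and their standard errors, a score of opposite sign to the fold change in all 18361 rows, and raw and adjusted p-values, under column names in the form DESeq2 writes, per the file headers. Adjusted p-values are missing for 707 to 2827 genes per table. A library's line was read from its table's name.

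TPM are not counts, so differences were tested on log2(TPM + 1) with limma 3.58.1 (R 4.3.3), two-sided, with a mean-variance trend and Benjamini-Hochberg adjustment over all genes, threshold 0.05. Culture and knockout comparisons used the 8 libraries of a line, and line comparisons all 16. On simulated data with 200 genes changed by 2 on the log2 scale, 178 were recovered for culture in A549 knockout and 159 for culture in H2023 wild type. The 4 genes, the 7 lists and the markers were chosen with earlier results of these data known. From each list the text names from among the 3 of highest mean TPM and the 2 of largest change among genes that passed with a mean of at least 5 TPM. Of neighbours it names the nearest on each side and those called in both cultures of a line by limma or by the authors' adjusted p-values. Repeats used a pseudocount of 0.1, a mean of at least 1 TPM, no mitochondrial genes, a replicate block, other sets of libraries, and each library left out.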

Additional observations from a re-analysis of the deposited data

Results flagged for a closer look

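TM4SF20 stood out because its change from normal to oncosphere culture in wild-type cells differed between the lines by the test of the difference itself: the H2023 change minus the A549 change was -2.521 on the log2(TPM + 1) scale (SE 0.58, limma adjusted p = 0.0147), with a rise of 1.23 in H2023 and 3.76 in A549. Leaving out each of the 8 wild-type libraries in turn gave -3.31 to -1.73 with limma adjusted p from 0.00135 to 0.0451. The 2 A549 normal-culture libraries, at 9.49 and 30.29 TPM, differed 3.19-fold, the largest ratio among the 4 wild-type pairs. The test was added after the values were seen.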

How the results depend on the processing

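Alternatives were run for the counts of called genes, for each of the 4 genes in the culture and line comparisons, and for the named list and neighbour genes that passed, except RASSF9 and NPY1R. The number called among the 4 genes stayed within 1.5 times its main value except for culture in the A549 knockout clone (3, and 1 to 2 with a library left out), the lines in normal culture (0, and 1, TC2N, with a mean of at least 1 TPM, or 0 to 2 with a library left out), the lines in oncosphere culture (1, and 1 to 2 with a library left out) and the culture difference between the lines (1, and 1 to 2 with a library left out). DOCK8 has a mean under 1 TPM and dropped out under that filter. Of the 88 list genes 2 passed in H2023 normal culture, against 7 with a mean of at least 1 TPM, 5 with all 16 libraries in the fit, 0 with the 4 libraries compared and 0 to 0 with a library left out. In H2023 oncosphere culture 3 passed, against 1 with a pseudocount of 0.1, 5 with a mean of at least 1 TPM, 8 with all 16 libraries, 0 with the 4 libraries compared and 0 to 0 with a library left out. The A549 list counts of 21 and 23 ranged over 10 to 16 and 12 to 18 with a library left out. The causes were not tested, beyond that a left-out library leaves fewer samples.

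Without a library some changes that had not passed took the other sign: culture in H2023 wild type gave -0.20 to 0.92 for DOCK8 (-0.06 without the first normal-culture library) and -0.20 to 1.24 for ELMO1. The lines in normal culture gave -1.08 to 0.37 for ELMO1, -0.59 to 0.26 for DOCK8 and -0.46 to 1.11 for TM4SF20, and the culture difference between the lines gave -1.08 to 0.0395 for DOCK8 and -0.89 to 0.55 for ELMO1. The ELMO1 culture calls in A549 also ended with all 16 libraries (limma adjusted p = 0.139 and 0.163).

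The labels do not say that equal replicate numbers share a batch, and deviations of same-numbered libraries correlated by 0 to 0.16 over 14823 genes within a line, and by 0.46 between the H2023 oncosphere groups. With the replicate number as a block the list count in H2023 oncosphere culture was 1 in place of 3 (TM4SF18 stayed, the AXL and LRP1 calls ended), the FBLN5 call in H2023 normal culture ended, and no call of the 4 genes changed.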
